A study of Mus musculus with 2 samples.

Results

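The respiratory chain is the set of protein complexes in the inner mitochondrial membrane that carries electrons from NADH and succinate to oxygen and uses the resulting proton gradient to make ATP. The genes described here were taken by symbol. They begin with Ndufa, Ndufb, Ndufc, Ndufs, Ndufv, Sdha to Sdhd, Uqcr, Cox4 to Cox8 or Atp5, or carry the prefix mt- of genes read from mitochondrial DNA. The rule found 111 of 32285 features. Of these, 13 are encoded in mitochondrial DNA and 98 in the nucleus, and the nuclear genes are 86 subunits and 12 assembly factors. Complex I (NADH dehydrogenase) has 45 nuclear and 7 mitochondrial members, complex II (succinate dehydrogenase) 8 nuclear members, complex III (cytochrome bc1) 8 and 1, complex IV (cytochrome c oxidase) 20 and 3, and complex V (ATP synthase) 17 and 2. Over all kept cells, 110 of the 111 genes had at least 100 UMIs and 0 had none.

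Complexes I, III, IV and V are built from both genomes, so their assembly needs products of nuclear genes, imported from the cytosol, together with subunits made on mitochondrial ribosomes. Complex II is read from the nucleus alone. All mitochondrially encoded subunits come from long transcripts of a circular genome that are cut into gene-sized RNAs, whereas every nuclear subunit has its own promoter, and several subunits of complex IV have a second gene with tissue-restricted use.

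Single-cell RNA was sequenced from tumours of MC38, a mouse colon carcinoma line, with 1 droplet library from a tumour labelled Mbtps1 WT (control) and 1 from a tumour labelled Mbtps1 KD (knockdown, called a knockout in the series text). Mbtps1 encodes site-1 protease, and the study asks what its loss does to the tumour and the cells around it. The sources used here do not give host strain, age, sex, the number of animals or clones behind a library, or the means of silencing. With 1 library per group no difference has a replicate check, no test was made, and every interval below is a 95% interval for counting error only.

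The libraries held 177399315 (control) and 174190399 (knockdown) UMIs (barcoded RNA molecules, each counted once) and gave 10937 and 13927 kept cells with medians of 8255 and 5996 UMIs, more cells than the about 6000 loaded, and 40 cell barcodes were kept in both. Clustering without the 111 genes gave 34 clusters, of which 29 were named as 11 cell classes from marker genes. Tumour-like cells (4435 and 6574) had Xist and Ptprc at 6.35 CPM (UMIs per 1000000 of the class) or less, while Krt7, Krt8, Krt18 and Epcam, which an epithelial tumour would carry, stood at 0.571 CPM or less, so the name rests on other markers. Some of these differed between the libraries themselves, with H19 at 897 and 268 CPM and Pld5 at 44.3 and 97.4 CPM. In tumour-like cells Mbtps1 was at 28.8 CPM (control) and 12.3 CPM (knockdown), with a ratio of 0.425 (0.398 to 0.455), and it was at 19.4 and 19.2 CPM in macrophage/monocyte-like cells. The clusters that held the most tumour-like cells differed between the libraries. Clusters 6 and 9 held 953 and 829 control cells, and clusters 0 and 2 held 1707 and 1639 knockdown cells. Values for the class therefore compare different mixtures of clusters.

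When UMIs were summed by the genome that a gene is read from, the sums differed between the libraries in opposite directions in most classes. Single genes did not all follow these sums, as described below. In tumour-like, macrophage/monocyte-like and T-like cells the 13 mitochondrially encoded genes took a smaller share of UMIs in the knockdown library, and the 98 nuclear-encoded genes took a larger one, although in T-like cells the latter difference was small and turned with depth. In macrophage/monocyte-like cells (4760 control and 4625 knockdown cells) the mitochondrially encoded genes made up 2.26% of control and 1.62% of knockdown UMIs, a ratio of 0.717 (0.714 to 0.720). The nuclear-encoded genes made up 2.20% and 2.47% of the UMIs of the same cells, a ratio of 1.12 (1.12 to 1.13). For each UMI of a nuclear-encoded member these cells held 1.03 (control) and 0.656 (knockdown) mitochondrially encoded UMIs.

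Summed over cells of all depths, tumour-like cells showed a smaller difference in mitochondrial RNA and a similar one in nuclear RNA. Their mitochondrially encoded share was 3.20% (control) and 2.86% (knockdown), with a ratio of 0.894 (0.893 to 0.896). Their nuclear-encoded share was 2.84% and 3.11%, a ratio of 1.09 (1.09 to 1.10). Mitochondrially encoded UMIs per nuclear-encoded UMI were 1.13 in control and 0.921 in knockdown. The contrast with macrophage/monocyte-like cells in mitochondrial RNA depended on depth. At 4000 to under 8000 UMIs the ratios were 0.901 (tumour-like) and 0.720 (macrophage/monocyte-like). At 8000 to under 16000 UMIs they were 0.729 and 0.720. In T-like cells (527 and 1438 cells) the mitochondrially encoded share was 2.50% and 1.88%, a ratio of 0.752 (0.743 to 0.761), while the nuclear-encoded share, 2.13% and 2.18%, had a ratio of 1.02 (1.01 to 1.04).

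Most other classes had the same order of libraries. The mitochondrially encoded share was lower in knockdown in fibroblast-like cells (2.27% and 1.44%), pericyte-like cells (2.64% and 1.84%), endothelial-like cells (2.61% and 2.04%), NK-like cells (2.45% and 1.93%), dendritic-like cells (2.04% and 1.67%), neutrophil-like cells (0.875% and 0.537%) and epidermis-like cells (4.29% and 3.36%). The neutrophil-like values rest on 59 control and 182 knockdown cells, and the median per cell had the opposite order, 0.353% in control and 0.401% in knockdown, so that the pooled control share lay above the third quartile of its cells (0.760%). Mast/basophil-like cells, 47 in control and 33 in knockdown, were the exception at 2.04% and 2.81%. Their medians per cell were closer, at 2.38% and 2.50%. Within clusters, the interval of the mitochondrially encoded ratio lay below 1 in 28 of 29 named clusters and above 1 in the mast/basophil-like cluster. It ran from 0.719 to 0.933 over the 9 tumour-like clusters, from 0.674 to 0.778 over the 8 macrophage/monocyte-like clusters and from 0.50 to 0.758 over the 3 T-like clusters. The nuclear-encoded ratio had an interval above 1 in 25 of 29 clusters and below 1 in 2, the epidermis-like cluster (2.21% and 2.04%) and the mast/basophil-like cluster (3.23% and 2.35%).

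**Figure D1:**
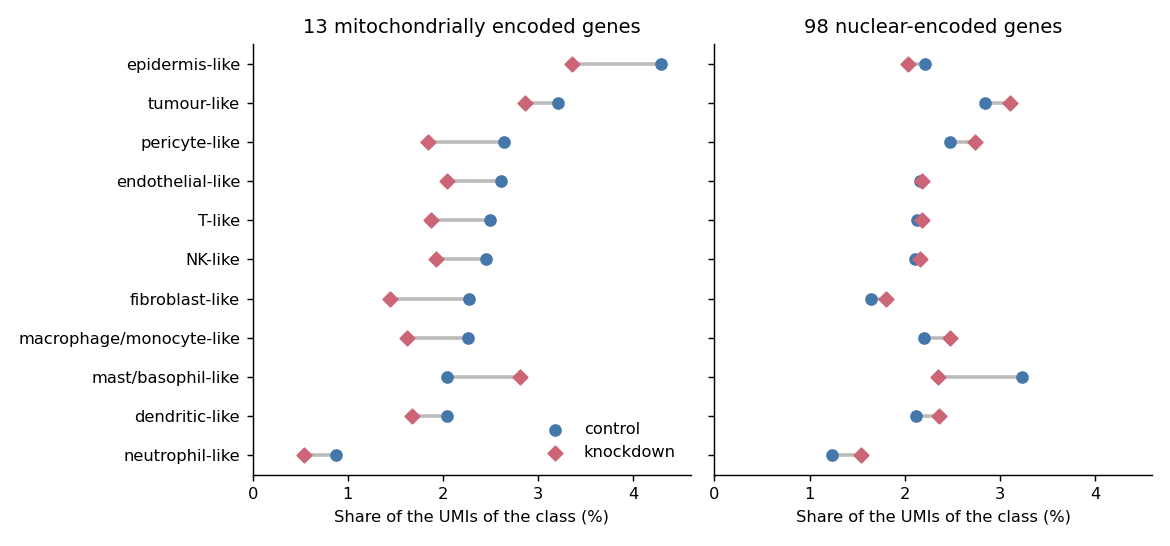
Share of the UMIs of each cell class, in percent, taken by the 13 mitochondrially encoded genes (left) and the 98 nuclear-encoded genes (right), with 1 circle for the control and 1 diamond for the knockdown library. On the left the diamond lies below the circle in every class but the mast/basophil-like one, and on the right it lies above the circle except in the epidermis-like and mast/basophil-like classes.

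Epidermis-like and tumour-like cells had the highest mitochondrially encoded shares in both libraries and neutrophil-like cells the lowest. For the nuclear-encoded genes the mast/basophil-like class came first in control, tumour-like cells came first in knockdown, and neutrophil-like cells came last in both (1.23% and 1.54%). Many neighbours in these orders differed little. Endothelial-like, T-like, dendritic-like and NK-like cells of the control library had nuclear-encoded shares of 2.16%, 2.13%, 2.12% and 2.11%, and only 1 library stands behind each value.

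The 2 libraries also differed in depth, in free RNA and in cells with little mitochondrial RNA, and the part these have in the differences was not tested. Median UMIs per cell were 21645 in control and 14163.5 in knockdown for tumour-like cells, and 6071.5 and 3973 for macrophage/monocyte-like cells. Among macrophage/monocyte-like cells grouped by depth, the mitochondrially encoded ratio lay between 0.471 and 0.720 in all 5 ranges from 500 to under 16000 UMIs. Among tumour-like cells it was 0.624 at 500 to under 1000 UMIs (24 control and 54 knockdown cells), 1.71 at 1000 to under 2000 UMIs (33 and 95 cells), 1.08 at 2000 to under 4000 UMIs, and 0.729 to 0.922 in the 4 deeper ranges, which held most cells. The nuclear-encoded ratio was farther from 1 in shallow cells. From 500 UMIs upward it was 1.43, 1.43, 1.17, 1.15 and 1.09 in the macrophage/monocyte-like ranges, and in tumour-like cells it lay between 1.52 in the shallowest and 1.01 in the deepest of 7 ranges. For T-like cells it was 1.496 at 500 to under 1000 UMIs, 1.34 and 1.16 in the next ranges, and 0.967 (0.946 to 0.989) at 4000 to under 8000 UMIs, on the other side of 1. Barcodes of at most 100 UMIs, which hold free RNA, had mitochondrially encoded shares of 3.32% and 3.02% and nuclear-encoded shares of 2.49% and 2.88%. Barcodes of more than 100 and up to 400 UMIs had 1.96% and 1.003% for the mitochondrially encoded and 2.41% and 3.23% for the nuclear-encoded genes, so the order of the libraries in these barcodes was that of most cell classes.

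Cells with under 0.5% mitochondrial UMIs were a larger part of the knockdown library. They were 2.37% of control and 8.43% of knockdown macrophage/monocyte-like cells, and 2.69% and 8.62% once every cell was thinned to 1000 UMIs, which left out 71 and 112 shallower cells. In tumour-like cells they were 3.65% and 6.98% (3.81% and 6.90% thinned, 24 and 54 cells left out), and in T-like cells 2.28% and 6.19% (2.28% and 6.36% thinned, 45 and 196 left out). Without such cells, an alternative chosen after the data were seen, the mitochondrially encoded ratio was 0.758 in macrophage/monocyte-like, 0.920 in tumour-like and 0.775 in T-like cells.

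The mitochondrially encoded genes did not all follow their sum, and in tumour-like cells the 3 subunits of complex IV and mt-Atp6 of complex V were lower in the knockdown library. The subunits of complex I were level or higher, and cytochrome b of complex III and mt-Atp8 of complex V were close to level. mt-Co1, the catalytic subunit of cytochrome c oxidase, was at 3070 and 2307 CPM in the control and knockdown libraries, with a ratio of 0.751 (0.747 to 0.756). mt-Co3 was at 3918 and 2922 CPM, a ratio of 0.746 (0.742 to 0.749). mt-Co2, which takes electrons from cytochrome c, differed less, with 3377 and 3179 CPM and a ratio of 0.941 (0.937 to 0.946). These 3 genes are the whole mitochondrial part of complex IV, and their summed ratio was 0.811 (0.809 to 0.813).

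ATP synthase subunit a, mt-Atp6, forms the proton path of complex V and was at 9400 and 7630 CPM in tumour-like cells, a ratio of 0.812 (0.809 to 0.814). Its neighbour mt-Atp8 was at 123 and 120 CPM, with an interval that holds 1 (0.955 to 1.004). mt-Cytb, the electron-carrying core of complex III, was at 6158 and 6345 CPM, a ratio of 1.03 (1.03 to 1.03). Of these 3 genes mt-Atp6 had the ratio farthest from 1.

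Among the 7 complex I genes of mitochondrial DNA, which form its membrane arm, those with the most UMIs were close to level in tumour-like cells. mt-Nd1 was at 1517 and 1573 CPM (ratio 1.04), mt-Nd2 at 2188 and 2175 CPM (0.994), mt-Nd4 at 1608 and 1607 CPM (0.999) and mt-Nd5 at 367 and 378 CPM (1.03). With every tumour-like cluster given equal weight, mt-Nd1, mt-Nd5 and mt-Cytb had ratios of 0.955, 0.915 and 0.997, and the ratio of mt-Nd2 was above 1 under 3 alternatives. The 3 with fewer UMIs were higher in knockdown. mt-Nd3 was at 132 and 178 CPM, a ratio of 1.35 (1.32 to 1.38), mt-Nd4l at 154 and 203 CPM, a ratio of 1.32 (1.29 to 1.35), and mt-Nd6, the only one read from the other strand, at 16.8 and 25.6 CPM, a ratio of 1.53 (1.44 to 1.62). Of the 13 genes, 3 were higher and 3 lower by 1.2-fold or more in tumour-like cells, where 23.4% and 14.1% of the 13826 genes with at least 100 UMIs passed the same limits.

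Among macrophage/monocyte-like cells 8 of 13 mitochondrially encoded genes were lower by 1.2-fold or more, against 7.17% of 11246 genes, and 0 were higher, against 18%. mt-Co1 was at 4090 (control) and 2621 CPM (knockdown), with a ratio of 0.641 (0.634 to 0.647). mt-Atp6 was at 5304 and 3612 CPM (ratio 0.681), mt-Co2 at 3943 and 2650 CPM (0.672) and mt-Co3 at 4447 and 3335 CPM (0.750). Complexes IV and V again had the lowest ratios, 0.690 and 0.685 for their mitochondrially encoded sums, against 0.819 for complex I and 0.838 for mt-Cytb (1804 and 1511 CPM). Within complex I, mt-Nd1 (0.788), mt-Nd2 (0.801), mt-Nd5 (0.792) and mt-Nd4 (0.829) were lower in knockdown, mt-Nd3 had a ratio of 0.898, mt-Nd6 one whose interval holds 1 (0.803 to 1.011), and mt-Nd4l was slightly higher at 1.09 (1.03 to 1.17). mt-Atp8 was at 63.8 and 63.7 CPM.

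T-like cells had values between those classes for several genes and wider intervals. mt-Co1 was at 3775 and 2764 CPM (ratio 0.732), mt-Co2 at 4303 and 3073 CPM (0.714), mt-Co3 at 4968 and 3914 CPM (0.788) and mt-Atp6 at 6291 and 4387 CPM (0.697). Intervals held 1 for mt-Nd4l (0.869 to 1.26), mt-Nd5 (0.817 to 1.05), mt-Nd6 (0.659 to 1.32) and mt-Atp8 (0.776 to 1.13), which had 56 to 691 UMIs in a library. In all, 6 of the 13 genes were lower by 1.2-fold or more, against 14.6% of 6223 genes, and 0 were higher, against 21.7%.

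**Figure D2:**
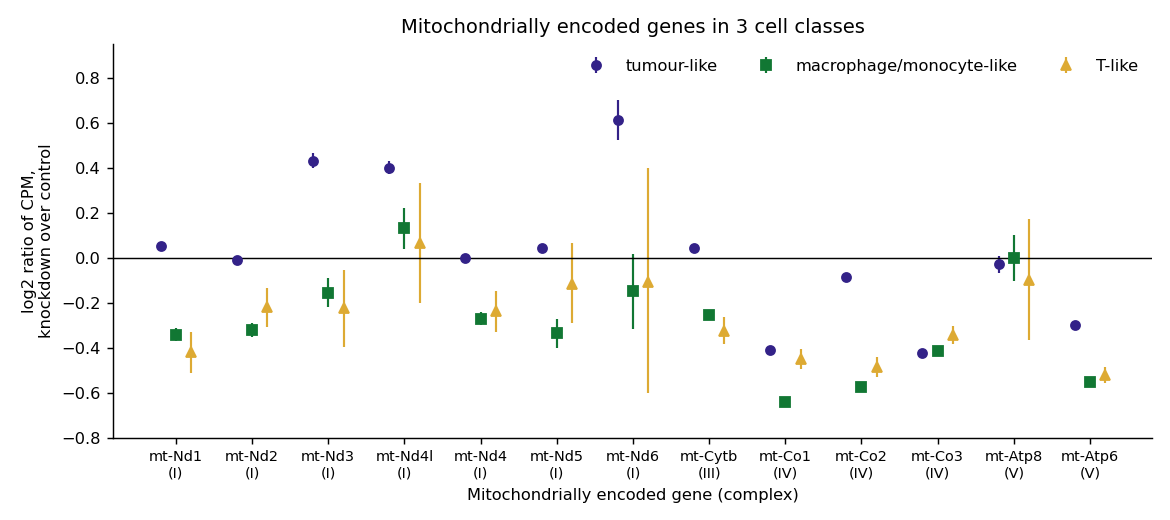
The log2 ratio of CPM, knockdown over control, for each mitochondrially encoded gene, ordered by complex, in tumour-like (circles), macrophage/monocyte-like (squares) and T-like cells (triangles), with 95% intervals for counting error. mt-Co1, mt-Co3 and mt-Atp6 lie below 0 in all 3 classes, and mt-Nd3, mt-Nd4l and mt-Nd6 lie above 0 by 0.40 to 0.61 in tumour-like cells.

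Counts of some of these genes cannot be fully separated, because their coding sequences overlap. mt-Atp8 (chrM:7766-7969, plus strand, GRCm38) and mt-Atp6 (chrM:7927-8607) share 43 bases, and mt-Nd4l (chrM:9877-10173) and mt-Nd4 (chrM:10167-11544) share 7. The 60 bases at each junction are shown in the orientation of the genes, from the reference transcripts, with the shared bases in capitals.
mt-Atp8, end, chrM:7910-7969: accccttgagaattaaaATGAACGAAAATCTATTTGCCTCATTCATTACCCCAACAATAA
mt-Atp6, start, chrM:7927-7986: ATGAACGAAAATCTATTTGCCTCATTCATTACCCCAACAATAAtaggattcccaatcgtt
mt-Nd4l, end, chrM:10114-10173: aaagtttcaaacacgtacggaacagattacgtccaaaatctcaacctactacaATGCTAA
mt-Nd4, start, chrM:10167-10226: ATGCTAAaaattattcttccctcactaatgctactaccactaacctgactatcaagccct
The start codon of mt-Atp6 thus lies inside mt-Atp8, and that of mt-Nd4 inside mt-Nd4l. The sources used here do not say how reads in shared bases, on either strand or from nuclear copies of these genes were assigned. The values of mt-Atp8, mt-Nd4l and mt-Nd6 (chrM:13552-14070, minus strand, whose end meets that of mt-Nd5 at chrM:11742-13565) are uncertain for that reason.

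The nuclear-encoded genes differed less from gene to gene. In tumour-like cells 92 of 98 had at least 100 UMIs over both libraries. The other 6 were the second-isoform genes Cox4i2, Cox6b2, Cox7a1, Cox8b, Cox8c and Ndufa4l2. Of the 92, 11 were higher in knockdown by 1.2-fold or more (23.4% of all genes), 5 were lower (14.1% of all genes), and 0 passed 1.5-fold in either direction (8.65% and 3.71% of all genes). With every cluster given equal weight, 17 were higher. Their median log2 ratio was 0.08, against 0.05 over all genes. In macrophage/monocyte-like cells 94 of 98 had enough UMIs, 14 were higher by 1.2-fold or more (18% of all genes), 0 were lower (7.17%), and 0 passed 1.5-fold (4.7% higher and 0.969% lower over all genes). Among cells of 2000 to 8000 UMIs 22 were higher. Over all cells of the class the median log2 ratio was 0.13, against 0.06 over all genes.

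Complex I takes electrons from NADH, and its 37 nuclear subunits had a summed ratio of 1.03 (1.03 to 1.04) in tumour-like and 1.08 (1.08 to 1.09) in macrophage/monocyte-like cells. Ndufb9, an accessory subunit and the member of this complex with the most UMIs in tumour-like cells, was at 660 (control) and 597 CPM (knockdown), with a ratio of 0.905 (0.895 to 0.915). Ndufb1-ps, an accessory subunit listed under a pseudogene symbol, had the most UMIs of the complex in macrophage/monocyte-like cells, with 595 and 705 CPM (ratio 1.18). Ndufc1, a small accessory subunit, was the single complex I subunit past 1.2-fold in tumour-like cells, with 222 and 274 CPM, and it was at 221 and 308 CPM in macrophage/monocyte-like cells. It is named after its values were seen. The core subunit Ndufs3 had the lowest ratio of complex I in macrophage/monocyte-like cells, 0.871, with 91.0 and 79.2 CPM.

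Assembly factors help to build a complex and then leave it. Ndufaf2 had the highest ratio of the complex I members in both classes, at 80.5 and 103 CPM (ratio 1.28, 1.24 to 1.32) in tumour-like and 28.0 and 40.2 CPM (1.43, 1.30 to 1.58) in macrophage/monocyte-like cells. Ndufaf3 had the lowest ratio in tumour-like cells, 0.700 (0.655 to 0.749), at 20.6 and 14.4 CPM, and was level in macrophage/monocyte-like cells at 29.2 and 29.1 CPM. Over the 12 assembly factors of complexes I and II the median log2 ratio was -0.06 in tumour-like cells and 0.03 in macrophage/monocyte-like cells.

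Complex II oxidises succinate and passes the electrons to ubiquinone. Its 4 subunits were level, with a summed ratio of 0.989 (0.97 to 1.004) in tumour-like and 1.03 (0.997 to 1.06) in macrophage/monocyte-like cells. The membrane anchors Sdhc and Sdhd were at 89.7 and 92.8 CPM and at 110 and 103 CPM in tumour-like cells. In macrophage/monocyte-like cells the iron-sulphur subunit Sdhb was at 131 and 135 CPM and the flavoprotein Sdha at 67.2 and 74.3 CPM. The assembly factor Sdhaf4 was lower in knockdown tumour-like cells (67.9 and 54.8 CPM, ratio 0.806, 0.778 to 0.836) and level in macrophage/monocyte-like cells (35.1 and 36.5 CPM). Among tumour-like cells of 2000 to 8000 UMIs the ratio of Sdhaf4 was 1.06 and that of Sdhd 1.01. Sdhaf1, which helps to insert iron-sulphur clusters, was at 14.7 and 12.9 CPM in macrophage/monocyte-like cells.

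Complex III passes electrons from ubiquinol to cytochrome c. The small subunits Uqcr10 and Uqcr11 were higher in knockdown, and the large core and iron-sulphur subunits were lower or level. In tumour-like cells Uqcr10 was at 207 (control) and 279 CPM (knockdown), with a ratio of 1.35 (1.32 to 1.37), and at 288 and 364 CPM in macrophage/monocyte-like cells, a ratio of 1.26 (1.23 to 1.30). Uqcr11 had ratios of 1.25 in both classes. The hinge protein Uqcrh, the member of complex III with the most UMIs, was at 574 and 618 CPM and at 483 and 518 CPM. The core subunit Uqcrc2 was lower, at 92.1 and 82.8 CPM in tumour-like (ratio 0.899) and 71.9 and 66.9 CPM in macrophage/monocyte-like cells (0.930), although among tumour-like cells of 2000 to 8000 UMIs its ratio was 1.19, and the Rieske protein Uqcrfs1 had ratios of 0.921 and 0.931. The other core subunit, Uqcrc1, had intervals that hold 1 in both classes (0.961 to 1.01 and 0.996 to 1.12). Uqcr11, Uqcrfs1 and Uqcrc1 are named after their values were seen.

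Complex IV reduces oxygen to water, and here the nuclear and mitochondrial subunits had opposite directions. The 20 nuclear subunits had a summed ratio of 1.17 (1.16 to 1.17) in tumour-like and 1.17 (1.16 to 1.18) in macrophage/monocyte-like cells, against 0.811 and 0.690 for the 3 mitochondrial ones. Of the nuclear subunits with enough UMIs, 12 of 14 in tumour-like and 14 of 16 in macrophage/monocyte-like cells had a ratio above 1. Their median log2 ratios were 0.18 and 0.22, against 0.05 and 0.06 over all genes. By range of transcript length, 48.6% to 67.1% of all genes were above 1 in tumour-like cells. In macrophage/monocyte-like cells 50.1% to 65.8% were. Cox8a, a small subunit and the nuclear member with the most UMIs in tumour-like cells, was at 1603 (control) and 2135 CPM (knockdown), with a ratio of 1.33 (1.32 to 1.34). It was at 869 and 1112 CPM in macrophage/monocyte-like cells (ratio 1.28) and at 855 and 1133 CPM in T-like cells (1.32).

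Other complex IV subunits past 1.2-fold in knockdown tumour-like cells were Cox7a2 (502 and 666 CPM), Cox6a1 (335 and 420 CPM) and Ndufa4 (722 and 890 CPM), a protein first counted with complex I and now placed in complex IV. In macrophage/monocyte-like cells Ndufa4 had the highest ratio of complex IV, 1.42 (1.35 to 1.49), with 116 and 164 CPM, and Cox7a2 (405 and 528 CPM), Cox6c (669 and 844 CPM), Cox6a1 (258 and 326 CPM) and Cox7b (423 and 509 CPM) also passed 1.2-fold. Cox7a2l, known for joining complexes III and IV into larger assemblies, went the other way, with 272 and 222 CPM in tumour-like cells (ratio 0.814, 0.800 to 0.829) and 271 and 243 CPM in macrophage/monocyte-like cells (0.900). Cox6c is named after its values were seen.

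Complex V makes ATP with the proton gradient. Its 17 nuclear subunits had a summed ratio of 1.08 (1.08 to 1.08) in tumour-like and 1.12 (1.12 to 1.13) in macrophage/monocyte-like cells, and its 2 mitochondrial subunits 0.814 and 0.685. The catalytic subunit Atp5b was at 922 and 991 CPM in tumour-like cells, and the central-stalk subunit Atp5e was at 869 and 1001 CPM in macrophage/monocyte-like cells. Atp5k, a small membrane subunit at the dimer interface, had the highest ratio of the complex in both classes, with 414 and 559 CPM (1.35, 1.33 to 1.37) and 391 and 511 CPM (1.31, 1.27 to 1.34). Atp5f1, a peripheral-stalk subunit, had the lowest, with 349 and 286 CPM (0.820, 0.807 to 0.833) and 313 and 274 CPM (0.876, 0.847 to 0.905). Atp5md and Atp5mpl, both small subunits, had ratios of 1.22 and 1.24 in tumour-like and 1.27 and 1.29 in macrophage/monocyte-like cells, and they were chosen for naming once their values were known. The 3 genes of the c subunit, which forms the rotating ring, had ratios of 1.12 (Atp5g1), 1.02 (Atp5g2) and 1.004 (Atp5g3) in tumour-like and 1.17, 1.09 and 1.13 in macrophage/monocyte-like cells.

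**Figure D3:**
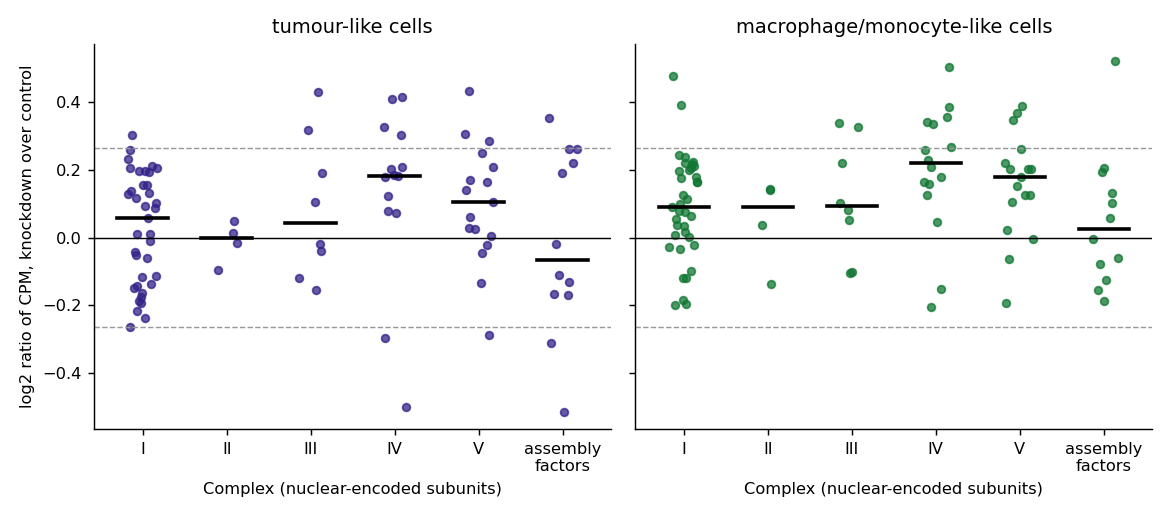
The log2 ratio of CPM, knockdown over control, of each nuclear-encoded member with at least 100 UMIs in tumour-like (left) and macrophage/monocyte-like cells (right), by complex, with subunits apart from assembly factors. Bars are medians and dashed lines mark 1.2-fold, and complex IV has the highest median among the subunits in both classes (0.18 and 0.22).

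In T-like cells the nuclear members were spread around 1. Of 86 with enough UMIs, 8 were higher and 8 lower by 1.2-fold or more, against 21.7% and 14.6% of all genes, and the median log2 ratio was -0.03. In simulated counts of T-like cells, counting error alone put 16.0% of unchanged genes past 1.2-fold, and the shares of all genes are not matched in UMIs. Complex IV was the complex with the highest summed nuclear ratio there too, 1.08 (1.06 to 1.11), and complex II the lowest, 0.886 (0.794 to 0.991). Sdhaf1 stood at 32.04 and 15.5 CPM in T-like cells, a ratio of 0.483 (0.325 to 0.714) from 59 and 51 UMIs, and Sdhb at 110 and 81.3 CPM.

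The smaller classes showed the nuclear members on both sides of 1, with counts that rest on fewer UMIs. Dendritic-like cells had 25 of 78 tested members higher and 8 lower by 1.2-fold or more, against 22.2% and 20% of all genes. The counts were 18 higher and 5 lower of 79 in fibroblast-like cells (13.3% and 26.7%), 18 and 5 of 55 in pericyte-like cells (21.1% and 25%) and 10 and 1 of 12 in neutrophil-like cells (30.6% and 29.4%). NK-like cells had 11 higher and 11 lower of 79 (26.5% and 14.7%) and endothelial-like cells 7 and 10 of 74 (23.1% and 18.9%). Epidermis-like cells had 4 higher and 28 lower of 81, against 26.9% and 27.1% of all genes, and so leaned the other way. Mast/basophil-like cells did so too, with 0 higher and 45 lower of 57 (26.4% and 51.1%). The limit of 100 UMIs counts both libraries together, so the library with more UMIs weighs more in which genes pass. Mast/basophil-like cells held 403812 control and 145580 knockdown UMIs, and neutrophil-like cells 101795 and 210804. Mast/basophil-like members under the limit went both ways, such as Sdha (ratio 1.54) and Ndufv1 (0.231). Of the mitochondrially encoded genes with enough UMIs, 11 of 12 were lower in fibroblast-like, 8 of 10 in pericyte-like, 8 of 12 in epidermis-like, 5 of 6 in neutrophil-like, 4 of 12 in NK-like, 4 of 12 in endothelial-like and 3 of 12 in dendritic-like cells by the same limit. The 4 in NK-like and in endothelial-like cells were mt-Co1, mt-Co2, mt-Co3 and mt-Atp6. None of those with enough UMIs was higher by 1.2-fold or more in these 7 classes except mt-Atp8 in dendritic-like cells, at 1.34 (0.918 to 1.95) from 73 and 50 UMIs.

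Genes with short transcripts had higher ratios among the nuclear members. In tumour-like cells the 32 members with transcripts under 700 bases had a median log2 ratio of 0.16, with 26 above 1, and the 36 members of 1000 to under 3000 bases had a median of -0.07, with 12 above 1. Medians for macrophage/monocyte-like cells were 0.20 (33 members, 32 above 1) and -0.00 (36 members, 17 above 1). All genes with transcripts under 700 bases had medians of 0.14 and 0.10 in the same classes, and those of 1000 to under 3000 bases 0.01 and 0.03. Under 700 bases, 67.1% and 63.8% of all genes had a ratio above 1. At 1000 to under 3000 bases 51.0% and 56.2% did. Only 6 members are longer than that, with medians of 0.13 and 0.17. Lengths are those of the longest top-ranked annotated transcript, and the forms present in these cells were not determined. Across members, Spearman's rho between length and log2 ratio was -0.39 (92 genes) in tumour-like and -0.33 (94 genes) in macrophage/monocyte-like cells. Across all genes it was 0.10 and 0.11. In T-like cells it was -0.24 across 86 members and 0.26 across all genes. Genes are not independent replicates and all points share the same libraries, so these are descriptions. The part of length in the differences between complexes was not tested.

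**Figure D4:**
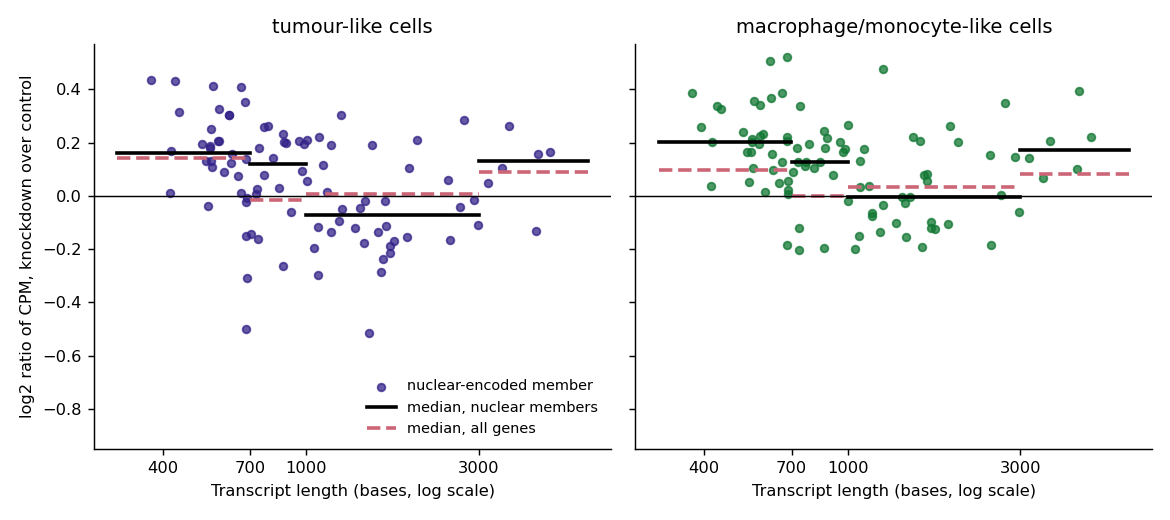
The log2 ratio of CPM, knockdown over control, against the length of the transcript in bases (log scale) for nuclear-encoded members in tumour-like (left) and macrophage/monocyte-like cells (right). Solid lines are medians of members and dashed lines medians of all genes in the same length range, and in both classes the members under 700 bases have a higher median (0.16 and 0.20) than those of 1000 to under 3000 bases (-0.07 and -0.00).

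Setting the classes side by side within each library showed that macrophage/monocyte-like cells held less of most members than tumour-like cells. The ratio of macrophage/monocyte-like over tumour-like was 0.706 in control and 0.566 in knockdown for the mitochondrially encoded sum, and 0.776 and 0.795 for the nuclear-encoded sum. With cells of 2000 to 8000 UMIs alone, the mitochondrially encoded ratios were 0.438 and 0.335. Of the 98 nuclear members, 68 had an interval below 1 and 17 one above 1 in both libraries, against 31.4% and 20.5% of 24913 genes. Only 13826 genes in tumour-like and 11246 in macrophage/monocyte-like cells had at least 100 UMIs, so the 24913 include many with few. Such genes have wide intervals, so these shares are not matched to the members in UMIs. Of the 13 mitochondrially encoded genes, 8 were lower in both libraries and 2, mt-Co1 and mt-Co3, were higher.

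The complexes differed in this contrast. mt-Cytb was the mitochondrially encoded gene with the lowest ratio, at 6158 CPM in tumour-like and 1804 CPM in macrophage/monocyte-like cells of the control library (0.293) and at 6345 and 1511 CPM in the knockdown library (0.238). mt-Nd2 followed, with 0.356 and 0.287. The mitochondrial part of complex IV had ratios of 1.204 and 1.02, whereas its nuclear part had 0.696 in both libraries. Complex II was level between the classes, with ratios of 1.02 (0.994 to 1.04) and 1.05 (1.03 to 1.08), and the assembly factors were at 0.599 and 0.615. These RNAs were not in 1 common proportion in both classes, then, and the pattern was similar in both tumours, although each class and library is a single sum.

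Complex IV has second-isoform genes, and their levels differed more between cell classes than between the libraries. Cox4i2, the second form of subunit 4, known from lung and from oxygen-sensing cells, was at 415 CPM (351 to 487) in control and 357 CPM (279 to 450) in knockdown pericyte-like cells, from 49 and 40 cells. It was at 14.5 and 12.5 CPM in macrophage/monocyte-like cells and in tumour-like cells at 0.174 and 0.160 CPM, while barcodes of at most 100 UMIs held 6.69 and 5.30 CPM. Cox4i1, the common form, was between 555 and 1075 CPM in all 11 classes and both libraries. Ndufa4l2, a relative of Ndufa4 induced by low oxygen, was at 1086 and 673 CPM in pericyte-like and 179 and 219 CPM in fibroblast-like cells. In epidermis-like cells it was at 51.6 and 117 CPM. These rest on 79 UMIs in 26 control cells and 45 UMIs in 9 knockdown cells, of which 1 cell held 17. In tumour-like cells Ndufa4l2 was at 0.252 and 0.210 CPM. Free RNA in the near-empty barcodes held 5.80 and 2.65 CPM of it, so its level in tumour-like cells, like that of Cox4i2, is read as background.

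Cox6a2, the heart and skeletal muscle form of subunit 6a, had an unusual spread. It was found in tumour-like cells at 55.4 (control) and 39.2 CPM (knockdown), the lowest ratio of complex IV in that class (0.708, 0.679 to 0.737). Dendritic-like cells held 78.8 and 67.5 CPM, almost all of it in a cluster led by Ifitm1 and Siglech (96.6 and 86.7 CPM). Near-empty barcodes held 37.0 and 30.2 CPM. Macrophage/monocyte-like cells, with 6.76 and 7.80 CPM, lay below that level. Free RNA is only a part of the UMIs of a cell, and its part in these values was not tested. Mast/basophil-like cells had 47.1 CPM in control, from 19 UMIs, and 20.6 CPM in knockdown, from 3 UMIs and below the free RNA, so they give no clear sign of the gene. Cox6a1, the common form, was at 335 and 420 CPM in tumour-like and 262 and 333 CPM in dendritic-like cells.

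Cox7a1, the muscle form of subunit 7a, was at 11.8 and 14.1 CPM in macrophage/monocyte-like cells, above both tumour-like cells (0.445 and 0.370 CPM) and near-empty barcodes (3.12 and 3.71 CPM). Cox6b2 and Cox7b2, known from testis, were at 2.65 and 3.11 CPM in macrophage/monocyte-like and at 0.774 and 0.881 CPM in tumour-like cells, respectively. Some smaller classes had more Cox6b2, from few UMIs. It was at 13.9 and 20.1 CPM in pericyte-like cells (5 and 4 UMIs) and 7.65 and 10.5 CPM in dendritic-like cells (10 and 7 UMIs). In epidermis-like cells it was at 13.7 and 2.59 CPM (21 and 1 UMIs). Cox8c had 1 UMI in tumour-like cells. Cox8b, the muscle form of subunit 8, was close to 0 in all named classes (0.0484 and 0.0200 CPM in tumour-like cells).

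A cluster of 31 cells (20 control and 11 knockdown), left unnamed and led by the muscle genes Acta1, Tnnc2 and Mylpf, held the muscle forms together. Cox8b was at 1232 and 1348 CPM there from 90 and 31 UMIs, Cox6a2 at 1040 and 1391 CPM from 76 and 32 UMIs, and Cox7a1 at 178 and 43.5 CPM from 13 and 1 UMIs. The common forms were present too, with Cox8a at 383 and 1696 CPM and Cox6a1 at 82.1 and 391 CPM, from 6 to 39 UMIs each. Nuclear-encoded members summed to 47356 and 53353 CPM in these few cells and mitochondrially encoded ones to 10131 and 6957 CPM, while 14 and 6 of the cells had under 0.5% mitochondrial UMIs.

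**Figure D5:**
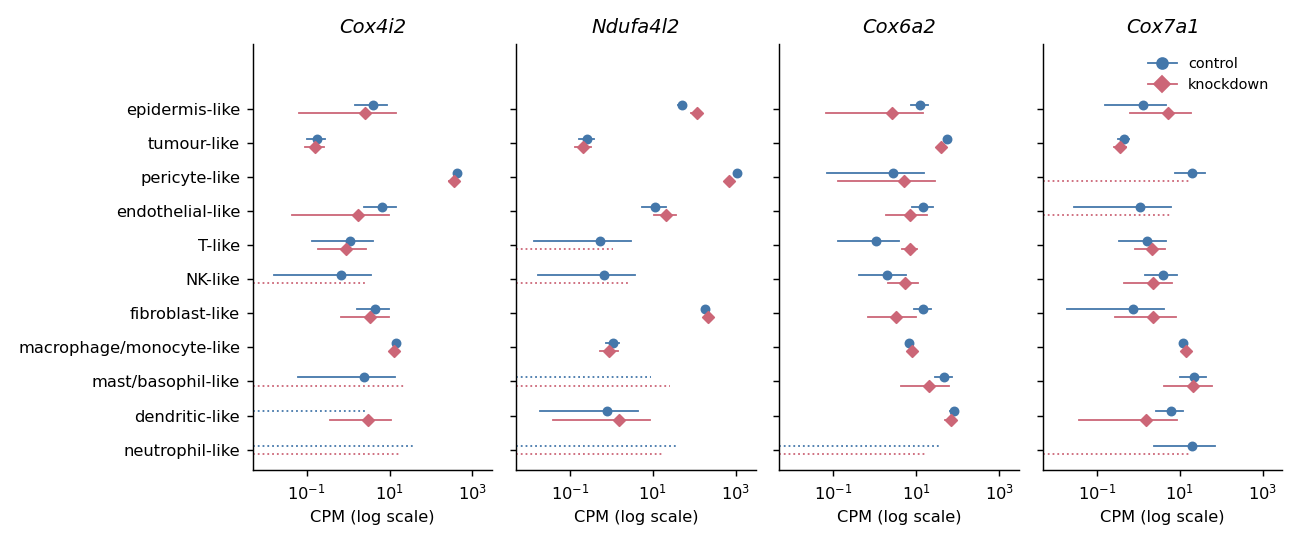
CPM (log scale) of 4 second-isoform genes of complex IV in each cell class, with 95% intervals for counting error, in control (circles) and knockdown (diamonds). Dotted lines without a point end at the upper limit of a class with 0 UMIs. Cox4i2 and Ndufa4l2 are highest in pericyte-like cells (415 and 1086 CPM in control), and Cox6a2 is highest in dendritic-like cells (78.8 CPM in control), followed by tumour-like cells.

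Promoters of 2 such pairs are shown because 1 gene of each pair was counted at high levels in tumour-like cells and the other gene, a muscle form, was near 0 there and highest in the cluster with muscle genes. They are the 250 bases before the start of the gene (RefSeq, GRCm38.p6), read 5′ to 3′ on the strand of the gene, with CG pairs in capitals.
Cox8a, chr19:7217617-7217866, minus strand: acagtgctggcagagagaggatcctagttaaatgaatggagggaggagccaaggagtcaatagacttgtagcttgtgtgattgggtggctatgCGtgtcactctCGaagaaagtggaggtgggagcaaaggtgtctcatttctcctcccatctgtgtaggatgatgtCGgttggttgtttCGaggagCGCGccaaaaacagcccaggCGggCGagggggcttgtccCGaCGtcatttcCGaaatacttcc
Cox8b, chr7:140900447-140900696, minus strand: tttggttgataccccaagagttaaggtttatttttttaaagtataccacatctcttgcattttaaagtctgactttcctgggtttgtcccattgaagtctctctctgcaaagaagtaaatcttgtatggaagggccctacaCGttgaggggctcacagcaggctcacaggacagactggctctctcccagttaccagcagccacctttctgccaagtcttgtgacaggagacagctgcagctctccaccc
Cox7a2, chr9:79759854-79760103, minus strand: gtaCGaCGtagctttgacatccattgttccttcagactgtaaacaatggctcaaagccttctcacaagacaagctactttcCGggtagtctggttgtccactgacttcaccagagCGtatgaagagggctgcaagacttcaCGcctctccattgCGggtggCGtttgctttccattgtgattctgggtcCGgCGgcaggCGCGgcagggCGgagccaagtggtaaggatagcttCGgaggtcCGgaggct
Cox7a1, chr7:30183921-30184170, plus strand: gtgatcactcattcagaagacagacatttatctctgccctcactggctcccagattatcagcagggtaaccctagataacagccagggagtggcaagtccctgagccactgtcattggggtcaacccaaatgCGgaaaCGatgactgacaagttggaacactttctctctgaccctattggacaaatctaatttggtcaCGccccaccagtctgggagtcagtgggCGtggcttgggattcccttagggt
Cox8a has 11 CG pairs and Cox8b 1, and Cox7a2 has 14 and Cox7a1 4. Low counts also occurred outside the muscle forms, with 4 in Ndufc2 and 5 each in Cox7b and Uqcr10. Of all promoters, 44.4% had as few as Cox7a1 and 18.8% as few as Cox8b. The 79 of 98 nuclear members found in the promoter table had a median of 15 CG pairs, with a range of 1 to 39, and all 32851 promoters of the table had a median of 6. A search on both strands found GCGCATGC, a form of the site of nuclear respiratory factor 1, in 9 of 79 members (11.4%) and 2.26% of all promoters, and CCGGAAG, a form of the ETS site, in 15 (18.99%) and 6.91%. AAGATGGCG, a form of the YY1 site, was in 0 of 79 and 0.606% of all promoters, and none of the 3 is in the promoters printed here. These matches describe the sequence in this window and no binding was measured.

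Genes that serve the chain outside the naming rule were counted as lists, chosen with earlier results of these data known. Of 10 electron carriers and related enzymes in tumour-like cells, 3 were higher by 1.2-fold or more and 0 lower. Cycs, which encodes cytochrome c, was at 537 and 649 CPM, a ratio of 1.21 (1.195 to 1.223), and at 237 and 305 CPM in macrophage/monocyte-like cells, a ratio of 1.29. Of 33 further assembly factors with enough UMIs in tumour-like cells, 4 were higher and 4 lower, with Atpaf1, which helps to build complex V, at 1.55 and the copper-handling factor Cox19 at 0.758. For macrophage/monocyte-like cells the counts were 4 of 32 higher and 0 lower, with Atpaf1 at 1.35.

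The genes that keep and read mitochondrial DNA had ratios on both sides of 1. In tumour-like cells 4 of 19 were higher and 3 lower, with Fastkd1, an RNA-binding protein of mitochondria, at 1.47 and Mterf4, which acts on the mitochondrial ribosome, at 0.773. For macrophage/monocyte-like cells they were 4 of 18 higher and 1 lower, with the same 2 genes at 1.75 and 0.825. Of 8 regulators of mitochondrial biogenesis with enough UMIs, 1 was higher and 0 lower in each class. That gene was the coactivator Ppargc1b in tumour-like cells (1.37) and Pprc1 in macrophage/monocyte-like cells (1.22). For the citric acid cycle, 2 of 13 genes were higher and 2 lower in tumour-like cells and 3 and 0 in macrophage/monocyte-like cells, with Suclg2 at 1.41 and 1.27 and Suclg1 at 0.782 in tumour-like cells. The ATP synthase inhibitor Atpif1 was at 467 and 606 CPM in tumour-like cells (ratio 1.30) and at 372 and 450 CPM in macrophage/monocyte-like cells (1.21). Over these lists the shares past 1.2-fold are to be read against 23.4% higher and 14.1% lower in tumour-like and 18% and 7.17% in macrophage/monocyte-like cells.

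Among genes that report on handling, Malat1, a nuclear RNA, had a ratio of 0.853 in tumour-like and 0.897 in macrophage/monocyte-like cells, and the early gene Fos 0.641 and 0.921. Of the 5 genes of this list, 1 was higher and 1 lower by 1.2-fold or more in tumour-like cells, and 0 and 1 in macrophage/monocyte-like cells. The higher gene, and the lower one in macrophage/monocyte-like cells, are others of the list, so Malat1 and Fos do not stand for the whole list. The median log2 ratio of the 5 genes was -0.13 in tumour-like and -0.22 in macrophage/monocyte-like cells. Cytosolic ribosomal protein genes took 28.9% of control and 28.4% of knockdown UMIs in tumour-like cells and 17.0% and 17.3% in macrophage/monocyte-like cells. Their part in the differences above was not tested.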

How the data were processed

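The UMI counts per gene and barcode were deposited by the authors as unfiltered matrices, made with Cell Ranger 4 per the file headers, from 10x 3' libraries. Genome build, annotation and use of strand in counting: not given in the sources used here. Barcodes with at least 500 UMIs and 250 genes were kept where they differed from the profile of barcodes of at most 100 UMIs (1000 draws, false discovery rate 0.01; those of 3000 UMIs or more were taken as cells), held at most 20% mitochondrial UMIs and were not called doublets by Scrublet in scanpy, which marked 481 control and 783 knockdown barcodes. Cells were clustered on 2000 variable genes, none of them a member, with 30 principal components, 15 neighbours and Leiden resolution 1. Clusters of at least 50 cells were named from at least 3 markers, with thresholds set after the data were seen.

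UMIs were summed by class and library. Ratios of CPM carry exact 95% intervals, and scripts were tested on simulated data. Fold calls use genes with at least 100 UMIs over both libraries and 1.2-fold. In the simulated data 4.12% of unchanged genes in tumour-like, 6.12% in macrophage/monocyte-like and 16.0% in T-like cells passed 1.2-fold by counting error. Named were every mitochondrially encoded gene, the second-isoform genes, and per complex the nuclear-encoded member with the highest mean CPM and those with the highest and lowest ratio. Members and lists were chosen with earlier results of these data known. Transcript lengths are from the basic set of GENCODE vM21, for the longest transcript among those ranked first by APPRIS, which ranks the isoforms of a gene. Software was Python 3.11.15, numpy 2.4.6, scipy 1.17.1, pandas 2.3.3, scanpy 1.11.5, leidenalg 0.10.2 and matplotlib 3.10.9. Alternatives changed the limits on cells, the scaling, the weighting of cells and clusters, free RNA and the fold limit.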

Additional observations from a re-analysis of the deposited data

Results flagged for a closer look

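Mast/basophil-like cells went against the other classes for both genomes. Their mitochondrially encoded ratio, knockdown over control, was 1.37, while the other 10 classes were below 1. The median mitochondrially encoded share per cell was 2.38% in control and 2.502% in knockdown. Their nuclear-encoded ratio was 0.727, while most classes were above 1. Of 57 nuclear-encoded members with enough UMIs, 45 were lower by 1.2-fold or more and 0 higher, against 51.1% and 26.4% of all genes, and 9 of 9 mitochondrially encoded genes were higher. The limit on UMIs counts both libraries together. Control held 403812 and knockdown 145580 UMIs, so control weighs more in which genes pass. The class held 47 control and 33 knockdown cells, and 16 control but 0 knockdown cells had under 0.5% mitochondrial UMIs. Those 16 cells had a median of 12120 UMIs, against 6636 over all control cells of the class. They therefore weigh more in the pooled share than their number. Mast cell proteases of the class also differed, with Cma1 at 8529 and 19989 CPM and the basophil protease Mcpt8 at 34.7 and 268 CPM. The part of these cells and proteases in the difference was not tested.

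In epidermis-like cells (227 and 102) the nuclear-encoded ratio was 0.920, on the other side of 1 from all classes but the mast/basophil-like one. None of these differences between classes was tested.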

How the results depend on the processing

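No paired analysis was possible because each group is 1 library. The same 10 ratios were recomputed under each alternative, and all kept their side of 1 under every one run, while many moved beyond their counting interval. They are given in a fixed order. First come mitochondrially encoded members of tumour-like, macrophage/monocyte-like and T-like cells, knockdown over control, then nuclear-encoded members of the same classes, then macrophage/monocyte-like over tumour-like in control and in knockdown for mitochondrially encoded and for nuclear-encoded members. With at most 10% mitochondrial UMIs allowed in a cell the ratios were 0.885, 0.720 and 0.771, then 1.10, 1.12 and 1.02, and between the classes 0.721 and 0.587, then 0.773 and 0.791. Without a limit on mitochondrial UMIs the ratios were 0.893, 0.715 and 0.752, then 1.09, 1.12 and 1.02, and between the classes 0.698 and 0.559, then 0.777 and 0.796. With at least 2000 UMIs per cell the ratios were 0.893, 0.711 and 0.778, then 1.10, 1.13 and 1.02, and between the classes 0.699 and 0.556, then 0.778 and 0.803. In cells of 2000 to 8000 UMIs the ratios were 0.932, 0.711 and 0.785, then 1.08, 1.14 and 1.05, and between the classes 0.438 and 0.335, then 0.839 and 0.891. Scaled to nuclear-encoded UMIs the ratios were 0.891, 0.713 and 0.747, then 1.09, 1.11 and 1.02, and between the classes 0.699 and 0.559, then 0.768 and 0.785. As means of the share per cell the ratios were 0.921, 0.715 and 0.696, then 1.10, 1.11 and 1.11, and between the classes 0.686 and 0.532, then 0.764 and 0.776. With every cluster given equal weight the ratios were 0.868, 0.713 and 0.643, then 1.12, 1.10 and 1.07, and between the classes 0.716 and 0.589, then 0.739 and 0.727. With 10% of UMIs subtracted as free RNA the ratios were 0.894, 0.685 and 0.728, then 1.09, 1.12 and 1.01, and between the classes 0.674 and 0.516, then 0.756 and 0.776. With doublets kept the ratios were 0.896, 0.753 and 0.752, then 1.09, 1.12 and 1.05, and between the classes 0.725 and 0.609, then 0.786 and 0.808. Without the test against empty droplets the ratios were 0.878, 0.718 and 0.737, then 1.10, 1.13 and 1.04, and between the classes 0.713 and 0.583, then 0.781 and 0.803. Without cells under 0.5% mitochondrial UMIs the ratios were 0.920, 0.758 and 0.775, then 1.09, 1.11 and 1.02, and between the classes 0.702 and 0.579, then 0.778 and 0.798. Scaled to nuclear-encoded UMIs other than those of ribosomal protein genes the ratios were 0.884, 0.714 and 0.741, then 1.08, 1.12 and 1.01, and between the classes 0.594 and 0.480, then 0.653 and 0.674. The last pair of settings and the removal of a tumour-like cluster of 220 cells, which moved none of these ratios beyond its interval, were chosen after the data were seen.

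Counts of nuclear-encoded members past the fold limit were less stable. In tumour-like cells 17 rather than 11 were higher with equal weight for clusters, and 0 were higher and 0 lower at 1.5-fold. In macrophage/monocyte-like cells 22 rather than 14 were higher in cells of 2000 to 8000 UMIs and 0 at 1.5-fold, and 2, 1 and 1 rather than 0 were lower with the mean per cell, with equal weight and with a limit of 20 UMIs. Of 943 values of 35 named members, 932 stayed on the same side of 1. The 11 others were all in tumour-like cells. In cells of 2000 to 8000 UMIs they were Sdhaf4 (1.06), Atp5e (0.994), Sdhaf1 (1.0007), Uqcrc2 (1.19), Sdhd (1.01) and mt-Nd2 (1.0014). mt-Nd2 was also at 1.03 with the mean per cell and at 1.02 without cells under 0.5% mitochondrial UMIs. With equal weight for clusters mt-Nd1 was at 0.955, mt-Nd5 at 0.915 and mt-Cytb at 0.997. The cause was not tested.

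Depth limits the rarer classes and the second-isoform genes, where a value can rest on a few UMIs. With 1 library per group, the tumours, their handling and the genotype cannot be told apart.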
